A study of Mus musculus with 10 samples.

Results

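In mouse spermatocytes the regions described here held called islands of all 4 studied marks of the histone H4 tail, acetyl and butyryl groups on its lysines 5 and 8, and in round spermatids none. They were found by merging the enriched islands of all 8 deposited lists on chromosomes 1 to 19 wherever islands shared at least 1 bp, and by keeping the regions that held an island of all 4 spermatocyte lists and of no round spermatid list. This gave 6722 of 58242 autosomal regions, or 11.5%, and 24.8% of the 27155 regions with all 4 marks in spermatocytes. With the 50% of islands of highest fold in each list there were 2946. The regions were thus chosen by the calls of these libraries, and the percentages, folds and lengths given for them are descriptions and not tests. The lists give reads within islands alone, so a region without an island is uncalled, which is not a measured absence.

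The groups were round spermatids and spermatocytes, fractionated from the testis of Oncins France 1 mice, with 1 library for each of H4K5ac, H4K5bu, H4K8ac and H4K8bu and 1 input library per stage. Mononucleosomes were immunoprecipitated with rabbit antibodies in a buffer that held sodium butyrate. The sources used here do not state the ages, the number of mice or the purity of the fractions, and the lists name no gene, so the labelled cell types could not be checked against markers. No group had a replicate: no test between stages, marks or classes of regions was possible, and intervals of shares and folds are exact 95% intervals that cover counting error only.

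Acetyl groups on the H4 tail neutralise the charge of lysines and are read by bromodomains, among them those of Brdt, the testis-specific bromodomain protein that acts in meiosis and in the removal of histones after it. Butyryl groups occupy the same lysines with a longer chain, and butyrylation of lysine 5 hinders the binding of Brdt to the tail. Spermatocytes are cells in meiosis with an active and broad transcription programme, and round spermatids are the haploid cells that follow and that later exchange histones for protamines. In sorted or fractionated cells, a mark carried by fewer cells and a mark carried at a lower level in each cell cannot be told apart.

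Enrichment in spermatocytes was moderate. The fold is the ChIP reads over the input reads of a region's islands, scaled by the ratio of library sizes. In the spermatocyte-only regions its median was 5.65 in H4K5ac (interquartile range 4.32 to 7.43), 3.87 in H4K5bu (3.10 to 4.84), 3.82 in H4K8ac (3.005 to 4.92) and 4.39 in H4K8bu (3.44 to 5.75). In the 15547 regions with 4 marks in both stages the spermatocyte medians were 7.87 (4.96 to 10.8), 4.85 (3.17 to 6.39), 4.79 (3.16 to 6.41) and 5.66 (3.78 to 7.63) in the same order. The spermatocyte-only regions thus had the lower median for every mark, by 0.48, 0.33, 0.33 and 0.37 on the log2 scale, while the interquartile ranges overlapped. With the 50% of islands of highest fold in each list the differences were -0.30, -0.22, -0.20 and -0.21. The largest gap was at H4K5ac. In the 4886 regions with 4 spermatocyte marks and 1 to 3 round spermatid marks the medians lay between, at 7.08, 4.46, 4.48 and 5.30. A typical spermatocyte-only region rested on few reads, with medians of 85 ChIP reads in H4K5ac, 105 in H4K5bu, 81 in H4K8ac and 103 in H4K8bu over 26 to 33 input reads. Median input density under the H4K5ac islands was 15.0 reads per kb in spermatocyte-only regions and 13.2 in regions with 4 marks in both stages. ChIP density there was 48.85 and 59.4 reads per kb. Under the H4K8ac islands the input medians were 15.0 and 13.3 and the ChIP medians 46.0 and 48.8 reads per kb. The part of input density in the lower folds was not tested.

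**Figure D1:**
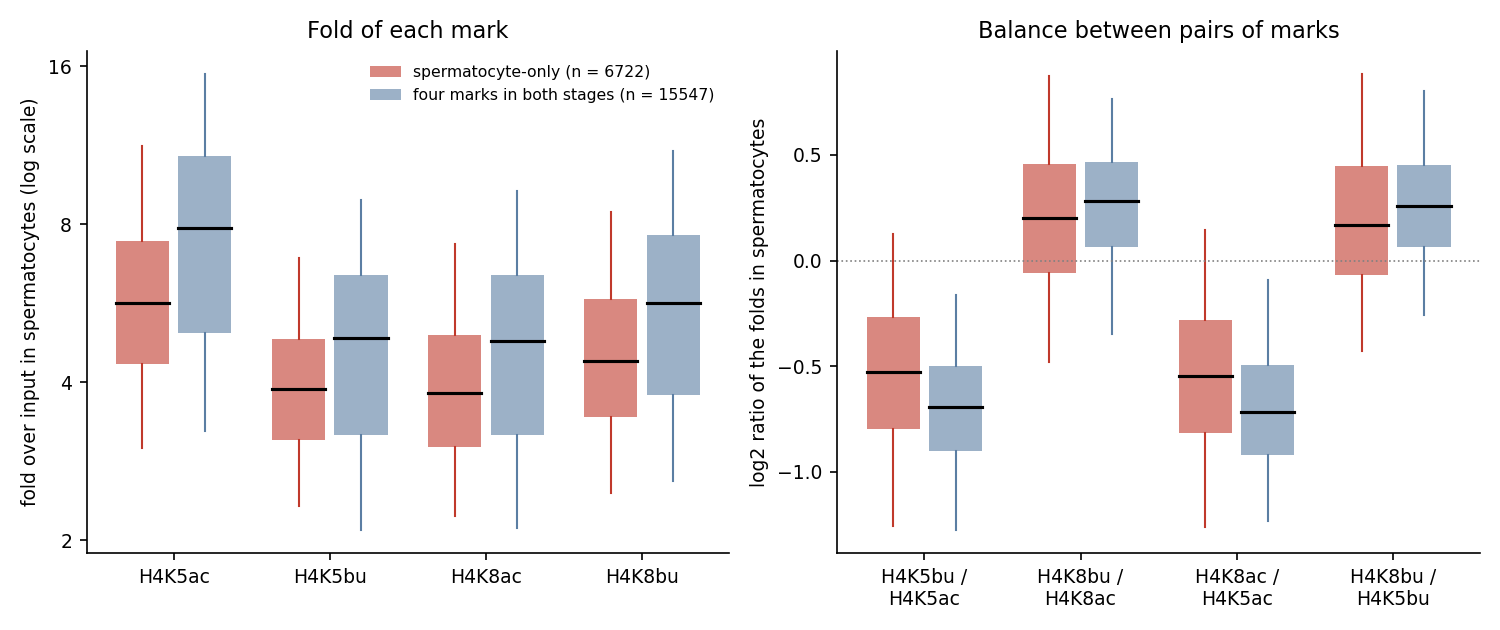
Left, fold over input in spermatocytes for each mark (log scale); right, log2 ratio of the folds of pairs of marks, in 6722 spermatocyte-only regions (red) and 15547 regions with 4 marks in both stages (blue). Boxes span the quartiles, black lines are medians and whiskers reach the 5th and 95th percentiles over regions. The red medians are lower for every mark, and the red medians of the ratios lie closer to 0. The red whiskers reach farther at both ends for every ratio but that of H4K5bu to H4K5ac. For H4K8bu to H4K8ac they run from -0.48 to 0.87 against -0.35 to 0.76. For H4K8bu to H4K5bu they run from -0.43 to 0.88 against -0.26 to 0.80. For H4K5bu to H4K5ac they run from -1.255 to 0.125 against -1.277 to -0.16.

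A single island of each mark made up nearly every region. H4K5ac had exactly 1 island in 98.8% of the regions, H4K5bu in 99.05%, H4K8ac in 99.0% and H4K8bu in 99.02%, against 82.3 to 84.1% in regions with 4 marks in both stages. With 4 spermatocyte marks and 1 to 3 round spermatid marks the shares were 95.3 to 95.7%. The spermatocyte-only regions were short, with a median length of 2600 bp (interquartile range 2200 to 3400 bp). Regions with 4 marks in both stages had a median of 8200 bp, or 6600 bp when only the span of their spermatocyte islands was taken, since round spermatid islands also lengthen a merged region. Those with 4 spermatocyte marks and 1 to 3 round spermatid marks had medians of 4000 and 3600 bp. All 4 marks shared at least 1 bp in 6719 of the 6722 regions, and the bases that all 4 covered had a median of 1400 bp and made up 50.0% of the marked bases at the median. The 3 regions with no such base, picked out after their values were seen, were chr2:153463801-153470200, chr8:123060401-123071400 and chr8:124858801-124861800.

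Around this common centre H4K5bu islands were present in the largest share of regions at a distance, and the other 3 marks lay closer together. At 900 bp from the centre of the shared bases, on the side of higher coordinates, 58.4% of the spermatocyte-only regions were still inside an H4K5bu island. There 45.9% were inside an H4K8bu island, 42.6% inside an H4K8ac island and 39.8% inside an H4K5ac island. At 900 bp on the side of lower coordinates the shares were higher, 66.9, 55.1, 50.3 and 49.3% in the same order. H4K5bu alone covered the most bases in 42.9% of the regions (41.7 to 44.1), against 17.0% in H4K8bu, 14.3% in H4K8ac and 9.31% in H4K5ac. In regions with 4 spermatocyte marks and 1 to 3 round spermatid marks H4K5bu did so in 41.7%. The H4K8bu and H4K5bu libraries had nearly the same size relative to the shared input, 1.184 and 1.187 input reads per ChIP read, while their autosomal islands held 9101516 and 7937840 ChIP reads. The H4K5ac library was the smallest of the stage (1.69). The part of depth in the widths was not tested. In regions with 4 marks in both stages the 2 butyryl marks reached about equally far in spermatocytes. At 2100 bp on the side of higher coordinates, 59.2% of these regions were still marked by H4K5bu and 58.3% by H4K8bu. H4K8ac was the narrowest at 42.2%. H4K8ac alone covered the fewest bases in 27.1% of the spermatocyte-only regions and in 53.03% of the regions with 4 marks in both stages.

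**Figure D2:**
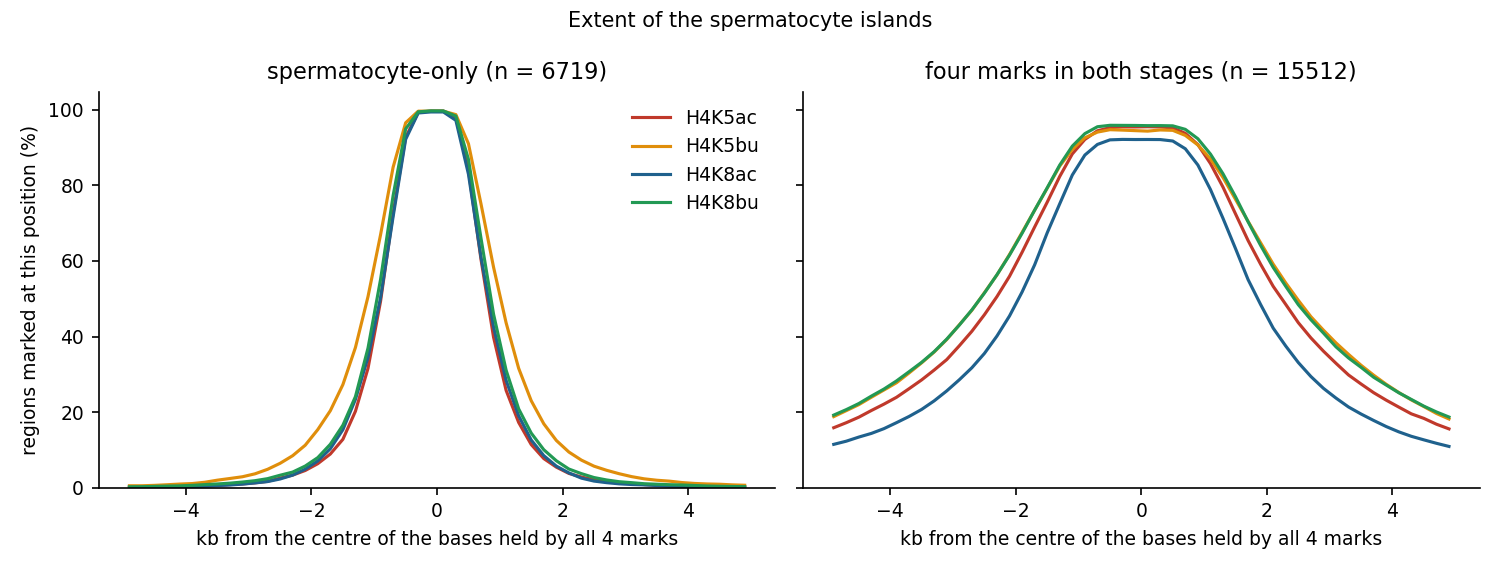
Percent of regions inside a spermatocyte island of each mark, by distance in kb from the centre of the bases held by all 4 marks, in spermatocyte-only regions (left, n = 6719) and in regions with 4 marks in both stages (right, n = 15512). At left the H4K5bu line lies outside the other 3; at right H4K5bu and H4K8bu run together and H4K8ac is the narrowest. Values in the right panel stay under 100% at the centre because some regions have several islands of a mark.

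H4K5ac was the mark with the highest fold in 75.2% of the spermatocyte-only regions (74.2 to 76.2) and in 90.2% of the regions with 4 marks in both stages (89.8 to 90.7). H4K8bu led in 13.0%, H4K8ac in 6.32% and H4K5bu in 5.48% of the spermatocyte-only regions. The most frequent order was H4K5ac, H4K8bu, H4K5bu, H4K8ac, found in 22.2% of them (21.2 to 23.2) and in 35.1% of the regions with 4 marks in both stages (34.3 to 35.8). With 4 spermatocyte marks and 1 to 3 round spermatid marks, H4K5ac led in 81.9% and this order was found in 26.0%. The order of marks was thus more varied in the spermatocyte-only regions. Across them, the folds of pairs of marks had Spearman correlations of 0.62 to 0.76 over 6722 regions, and 0.84 to 0.90 over the 15547 regions with 4 marks in both stages. All folds of the stage divide by the same input library. Each mark had its own antibody, so its rank by fold is not a rank by amount. The spermatocyte-only regions also held fewer ChIP reads over the 4 lists, a median of 375 against 1132, and the part of this in the lower correlations was not tested.

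The rule did not use the balance at a lysine, the ratio of its butyryl to its acetyl fold. Both folds depend on the calls that the rule did use, and the classes were not matched for fold. The folds come from different antibodies and single libraries, so equal folds do not mean equal amounts. At lysine 5 the log2 ratio of H4K5bu to H4K5ac fold had a median of -0.53 in the spermatocyte-only regions (interquartile range -0.80 to -0.27) and of -0.69 in regions with 4 marks in both stages (-0.90 to -0.50). H4K5bu lay above H4K5ac in 8.94% of the spermatocyte-only regions and in 2.14% of the others. At lysine 8 the log2 ratio of H4K8bu to H4K8ac had a median of 0.20 in the spermatocyte-only regions and of 0.28 in regions with 4 marks in both stages, and H4K8bu lay above H4K8ac in 70.2% and 80.02% of them. Regions with 4 spermatocyte marks and 1 to 3 round spermatid marks had medians between these, -0.63 at lysine 5 and 0.25 at lysine 8. The medians of both balances lay nearer to equal folds in the spermatocyte-only regions than in those with 4 marks in both stages. The differences between these medians were 0.17 at lysine 5 and -0.081 at lysine 8. With the 50% of islands of highest fold in each list these differences were 0.094 and -0.039, and with lists of equal length 0.11 and -0.039. Between the residues, the log2 ratio of H4K8ac to H4K5ac had a median of -0.55 against -0.72 in regions with 4 marks in both stages, and that of H4K8bu to H4K5bu one of 0.17 against 0.26.

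Islands of a pair of marks seldom had the same edges, and a fold covers the whole of its island, so the balances were also read where both islands began and ended at the same position and hence held the same input reads. At lysine 5 these were 341 spermatocyte-only regions with a median log2 ratio of -0.41 (interquartile range -0.59 to -0.21), and 333 regions with 4 marks in both stages with one of -0.63 (-0.77 to -0.49). At lysine 8 they were 437 regions with a median of 0.20 (0.012 to 0.39) and 278 regions with one of 0.37 (0.25 to 0.50). The distance between the classes was larger here than over all regions. The spermatocyte-only regions so compared had a median span of 2000 bp at lysine 5 and 2200 bp at lysine 8, against 4000 bp for the others, and length moved with the balance. Over all spermatocyte-only regions the median log2 ratio at lysine 5 was -0.44 in regions up to 2000 bp, -0.53 from there to 3000 bp, -0.57 to 4000 bp, -0.62 to 6000 bp and -0.69 above. In regions with 4 marks in both stages it was -0.52, -0.65, -0.69, -0.71 and -0.70 over the same spans. The spermatocyte-only value was the one nearer 0 at each span, with a gap of 0.009 on the log2 scale above 6000 bp at lysine 5. At lysine 8 the spermatocyte-only medians were 0.12, 0.20, 0.24, 0.28 and 0.36 and the others 0.26, 0.24, 0.30, 0.30 and 0.28, so there the order of the classes turned above 6000 bp, where 219 spermatocyte-only regions lay.

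Ratios past 2-fold were set beside those in all autosomal regions that held both marks in spermatocytes, the spermatocyte-only regions among them. H4K5bu was lower than H4K5ac by more than 2-fold in 891 regions, or 13.3%, against 15.2% of all 31216 regions. It was higher by more than 2-fold in 3 regions, against 0.032% of all. H4K8bu was higher than H4K8ac by more than 2-fold in 189 regions, or 2.81%, against 1.8% of all 29390 regions, and lower in 39, or 0.580%, against 0.459%. H4K8ac was lower than H4K5ac by more than 2-fold in 926 regions, or 13.8%, against 15.5% of all 29973 regions, and higher in 8, against 0.0867%. H4K8bu was higher than H4K5bu by more than 2-fold in 210 regions, or 3.12%, against 2.56% of all 30391 regions, and lower in 18, or 0.268%, against 0.217%. The shares of regions where H4K5bu or H4K8ac was lower than H4K5ac were each somewhat below those of all regions. For the pairs with H4K8bu the shares past 2-fold higher lay above those of all regions. The shares past 2-fold lower, from 39 and 18 regions, were near those of all regions. With 1 to 3 round spermatid marks beside 4 spermatocyte marks, these lower shares were 0.675 and 0.307%. The counting intervals of H4K8bu past 2-fold higher were 2.43 to 3.24% over H4K8ac and 2.72 to 3.57% over H4K5bu. In regions with 4 spermatocyte marks and 1 to 3 round spermatid marks these shares were 2.31 and 3.64%. The part of read counts in such shares was not tested. No pair was past 2-fold at lysine 8 among the 437 regions with equal edges, and at lysine 5 H4K5bu was lower by more than 2-fold in 5 of the 341.

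The single regions with the most extreme balances, among those with at least 50 ChIP reads in each list, show what such ratios rest on. At chr2:67402201-67405200, one of the 3 regions with H4K5bu more than 2-fold higher, 58 H4K5bu reads over 5 input reads gave a fold of 13.8 (5.57 to 44.0) and 89 H4K5ac reads over 24 input reads one of 6.26 (3.95 to 10.3). Its H4K5bu island covered 800 bp and its H4K5ac island 2400 bp. The other two with H4K5bu past 2-fold higher, chr8:123423801-123425200 and chr13:30470601-30474000, were picked out after their values were seen and had H4K5bu folds of 8.51 and 6.78 over 6 and 7 input reads. In the other direction, at chr16:80069601-80074000 H4K5bu covered all 4400 bp with a fold of 3.91 (2.74 to 5.69), and H4K5ac covered 1600 bp with one of 19.4 (9.45 to 46.3). At chr19:25772801-25776800 the H4K5bu fold was 3.26 (2.35 to 4.58) over 3800 bp and the H4K5ac fold 15.3 (8.43 to 30.6) over 1400 bp. At chr11:103618401-103620800, second in favour of H4K5bu, the H4K5bu fold was 6.03 (3.22 to 12.3) over 1000 bp and the H4K5ac fold 3.03 (1.89 to 4.95) over 1600 bp. In each of these regions the mark with the higher fold of the pair had the shorter island.

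At lysine 8 the same was seen. At chr10:96937201-96940400 the H4K8bu fold was 17.8 (7.28 to 56.3) over 1000 bp and the H4K8ac fold 4.13 (2.80 to 6.26) over 2600 bp, and at chr19:16085201-16088600 they were 13.0 (5.26 to 41.7) over 800 bp and 3.42 (2.11 to 5.71) over 2200 bp. At chr15:8382201-8387000 the H4K8bu fold was 2.56 (1.88 to 3.52) over 4400 bp and the H4K8ac fold 8.71 (4.13 to 21.1) over 1400 bp, and a round spermatid island abutted it without sharing a base. The region chr6:146578001-146584200 had butyryl folds below its acetyl folds at both lysines, 5.47 (3.64 to 8.48) in H4K8bu and 3.04 (2.22 to 4.21) in H4K5bu. Its acetyl folds were 16.5 (6.07 to 62.7) in H4K8ac, over 4 input reads, and 11.8 (6.97 to 21.4) in H4K5ac, and a round spermatid island lay 0.8 kb away.

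The mean fold over the 4 marks is taken, here and below, as the mean on the log2 scale. In 5688 of the 6722 regions each list had 50 or more ChIP reads, and among these the mean fold was highest at chr7:31161401-31163800. Its folds were 19.8 (10.7 to 40.6) in H4K5ac, 13.9 (7.88 to 26.7) in H4K5bu, 16.8 (8.22 to 39.9) in H4K8ac and 11.9 (6.74 to 23.0) in H4K8bu, and no round spermatid island lay within 21.4 kb. The next were chr12:84647001-84648800, chr1:118662401-118664600, chr14:88736001-88738200 and chr10:90290201-90291800. The first 3 of these 4 had H4K5ac folds of 19.6, 21.3 and 18.8 and H4K8ac folds of 13.1, 10.6 and 9.37. The last had the lower H4K5ac fold of 8.44 and an H4K8ac fold of 31.7 that rested on 51 ChIP reads over 2 input reads (8.34 to 268.9). All 5 were short, 1600 to 2400 bp, and their intervals are not adjusted for the choice of the highest. The first and the last had a higher H4K8ac than H4K8bu fold, and the other 3 the reverse.

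Typical regions, of the median length and nearest to the median enrichment, were chr3:31780001-31782600, chr5:81583801-81586400 and chr11:35280001-35282600. The first held 89 H4K5ac, 64 H4K5bu, 58 H4K8ac and 84 H4K8bu reads, with folds of 4.70 (3.10 to 7.27), 3.17 (1.95 to 5.29), 4.24 (2.44 to 7.77) and 5.85 (3.45 to 10.5). The intervals of its 4 folds overlapped, so counting error alone did not separate the marks there. H4K5ac had folds of 5.23 and 4.84 in the other two, and H4K8bu 5.09 and 5.41.

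The regions with the most ChIP reads over the 4 lists were broader. The first, chr4:88433601-88453800, was 20200 bp long and held 6 H4K5ac, 4 H4K5bu, 5 H4K8ac and 3 H4K8bu islands with 2546 reads in all. Its folds were 6.82 (5.69 to 8.23) in H4K5ac, 3.87 (3.29 to 4.57) in H4K5bu, 4.01 (3.23 to 5.02) in H4K8ac and 5.41 (4.66 to 6.31) in H4K8bu. It closed a run of 5 consecutive spermatocyte-only regions within 53.0 kb. The next were chr3:78105401-78119200, chr4:51862601-51871800, chr3:124355201-124365400 and chr3:129176801-129186600, with 2335 to 2449 reads and H4K5ac folds of 8.65, 11.6, 10.9 and 9.02. At chr4:51862601-51871800 the H4K8bu fold of 12.3 (9.39 to 16.5) exceeded the H4K8ac fold of 5.09 (4.12 to 6.32), with 594 ChIP reads over 57 input reads and 454 over 111. These regions had at least 355 ChIP reads per mark and no called island in round spermatids, the nearest lying 8.4 to 67.6 kb away.

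Length alone did not make a strong region. The longest, chr13:66195801-66219200, spanned 23400 bp with folds of 1.96 (1.60 to 2.39) in H4K5ac, 1.63 (1.46 to 1.82) in H4K5bu, 1.60 (1.41 to 1.82) in H4K8ac and 1.38 (1.20 to 1.59) in H4K8bu over 190 to 566 input reads. The third in length, chr13:65601001-65619600, had an H4K5bu fold of 1.19 (1.07 to 1.33) over 631 input reads and 16000 bp, and an H4K5ac fold of 3.33 (2.47 to 4.51) over 69 input reads and 3200 bp. Both lay in one part of chromosome 13 with deep input, and the second in length was chr4:88433601-88453800, described above.

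Near the edge of the rule the calls were weak. Of all spermatocyte-only regions, the weakest mark had a median q-value of 3.6e-20, and 8.7e-14 at the upper quartile. Just inside lay chr4:53876401-53880400, whose H4K5bu island had 96 ChIP over 89 input reads, a fold of 1.28 (0.949 to 1.73) and a q-value of 0.0084, and chr17:71312601-71314000, with folds of 1.46 to 2.14 and a weakest q-value of 0.0077. Just outside lay chr13:66407201-66415400, which had a round spermatid H4K8bu island with a fold of 1.24 and a q-value of 0.0094, and chr13:66688401-66696600, with a round spermatid H4K5ac island of fold 1.30 and q-value 0.0089. Their spermatocyte folds, 1.22 to 1.52, were low too.

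Most of the regions that missed the rule by a single list did so through H4K5bu or H4K8ac. Of 1733 regions with all 4 spermatocyte marks and 1 round spermatid mark, that mark was H4K5bu in 1050 (60.6%, 58.2 to 62.9), H4K5ac in 527 (30.4%), H4K8bu in 97 (5.60%) and H4K8ac in 59 (3.40%). The median fold of these lone round spermatid islands was 2.80 in H4K5bu and 3.60 in H4K5ac. Of 2799 regions with 3 spermatocyte marks and none in round spermatids, the missing mark was H4K8ac in 1394 (49.8%, 47.9 to 51.7), H4K5bu in 897 (32.05%), H4K8bu in 376 (13.4%) and H4K5ac in 132 (4.72%). H4K5bu had the longest and H4K8ac the shortest of the round spermatid lists, with 40185 and 27526 autosomal islands. The spermatocyte lists held 35370 islands of H4K8ac, 37578 of H4K5bu, 40695 of H4K8bu and 43505 of H4K5ac, so the shorter the list, the more often its mark was the missing one. The part of list length in these counts was not tested. Where 4 spermatocyte marks met any round spermatid island, one almost always reached the bases shared by all 4. In 67 of 20433 such regions, 0.328%, there were shared bases and no round spermatid island on them. Regions with no shared base are not among the 67. Shared bases were present in 15512 of 15547 regions with 4 marks in both stages and in 4880 of 4886 with 1 to 3 round spermatid marks.

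The called round spermatid islands show which folds reached the list. Among those with as many input reads as lay between the quartiles of the spermatocyte-only regions in spermatocytes, the 5th percentile of the fold was 3.07 in H4K5ac (19 to 35 input reads, 5210 islands), 2.05 in H4K5bu (24 to 46, 12673 islands), 2.23 in H4K8ac (20 to 37, 5907 islands) and 2.68 in H4K8bu (21 to 38, 4557 islands). The spermatocyte fold exceeded these values in 94.03, 98.04, 94.75 and 91.95% of the spermatocyte-only regions. The lowest folds of these called islands lay between 1.44 and 1.63. Against the 5th percentiles of called spermatocyte islands with as many input reads, the shares were 97.74, 96.61, 92.49 and 95.24%. How often a mark of a given fold goes uncalled cannot be read from the lists, and the spermatocyte folds had themselves to pass a call. These shares therefore cannot show whether an unchanged mark would have been called in round spermatids.

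The share of regions without a round spermatid island was lower at longer spans of the spermatocyte islands. Among all 27155 regions with 4 spermatocyte marks it was 62.8% (61.6 to 63.9) in the lowest quartile group, with spans of 400 to 3000 bp, 26.3% from 3200 to 4600 bp, 7.17% from 4800 to 7600 bp and 1.20% (0.947 to 1.49) above. A longer region can meet a round spermatid island over more bases, and no correction was made for this. By mean fold the shares were 30.2, 38.4, 21.7 and 8.76% from the lowest to the highest quartile group, so the second group had the highest share. Within the shortest group by span, the share was 72.1% at the lowest folds and 37.2% at the highest. Among the longest and strongest regions, 3 of 1525 had no round spermatid island, chr3:124355201-124365400, chr4:51862601-51871800 and chr7:97708801-97721000. The last, singled out after its values were seen, was 12200 bp long with folds of 8.20 in H4K5ac, 3.99 in H4K5bu, 7.93 in H4K8ac and 8.83 in H4K8bu.

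**Figure D3:**
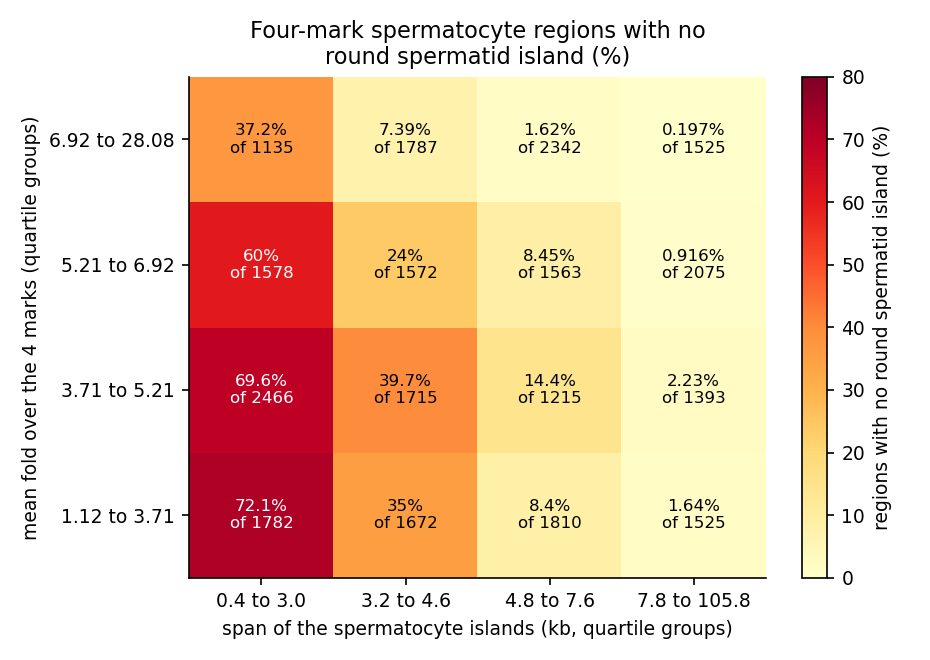
Percent of regions with 4 spermatocyte marks that had no round spermatid island, by quartile groups of the span of the spermatocyte islands (kb, across) and of the mean fold over the 4 marks (mean on the log2 scale, up). Each field gives the percent and the number of regions it is taken over. The share is highest at lower left, 72.1%, and lowest at upper right, 0.197%.

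At equal span the spermatocyte-only regions still had the lower folds. In spans above 2000 and up to 3000 bp, the median H4K5ac fold was 5.66 in 2811 spermatocyte-only regions and 7.61 in 798 regions with 4 marks in both stages, and the H4K8bu fold 4.36 and 5.88. From there to 4000 bp the medians were 5.70 and 8.37 in H4K5ac and 4.34 and 6.21 in H4K8bu. Within the spermatocyte-only regions the H4K5ac median was higher in long ones, 6.02 above 6000 bp and 5.49 up to 2000 bp, and that of H4K5bu lower, 3.69 and 4.03.

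The spermatocyte-only regions seldom lay at the edge of a round spermatid island. Their median distance to the nearest one was 19.6 kb (interquartile range 8.2 to 42.8 kb). An island lay within 1000 bp of 2.10% of them (1.77 to 2.47), within 10 kb of 29.9% (28.8 to 31.0) and within 100 kb of 94.1%. When regions with a round spermatid island up to 5000 bp away were left out, the share within 10 kb was 17.3%, which follows from that choice itself. For the 10584 regions with 1 to 3 spermatocyte marks and no round spermatid mark, the median was 16.2 kb and the share within 10 kb 35.8% (34.9 to 36.7). Regions with all 4 marks thus lay somewhat farther from round spermatid islands than those with fewer. The most remote were chr14:99024801-99027400, at 382 kb, with folds of 3.78 to 6.19, and chr3:113924201-113931200, at 379.4 kb, where H4K5ac reached 10.3 (7.40 to 14.6) and the other marks lay between 5.38 and 6.27.

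**Figure D4:**
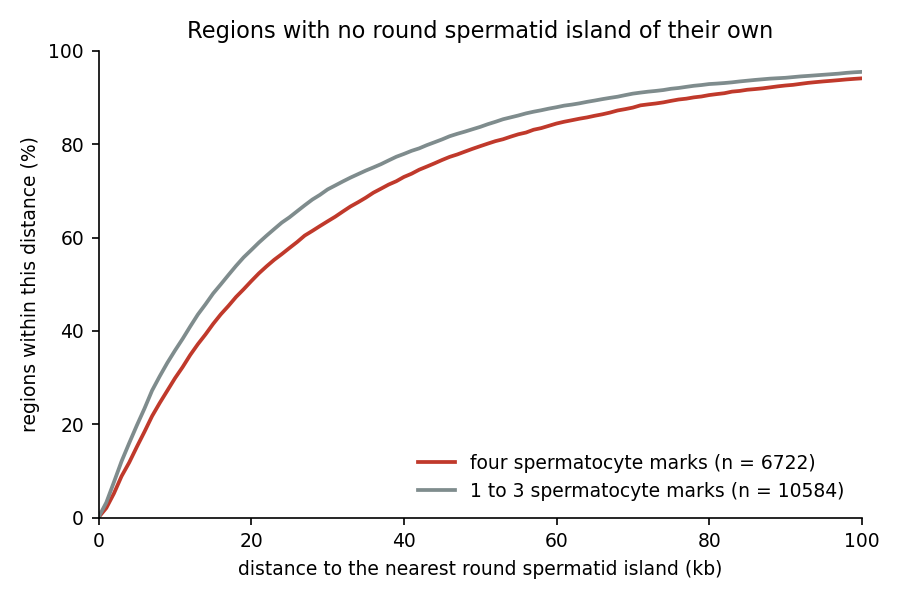
Cumulative percent of regions by distance in kb to the nearest round spermatid island, for 6722 regions with 4 spermatocyte marks (red) and 10584 with 1 to 3 spermatocyte marks (grey), all without a round spermatid island of their own. The red line lies below the grey one, with 29.9 and 35.8% within 10 kb.

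Spermatocyte-only regions followed each other along the chromosome more often than regions at large were followed by one. The next region was also spermatocyte-only in 16.1% of cases (15.2 to 17.0), against 11.5% of all regions. After a region with 4 marks in both stages it was so in 9.39% (8.94 to 9.86). After one with 4 spermatocyte marks and 1 to 3 round spermatid marks it was so in 13.3%. Other classes also followed themselves more often than they followed regions at large. For 4 marks in both stages the shares were 31.3 and 26.7%. For 4 round spermatid marks and none in spermatocytes they were 10.4 and 4.76%. With the 50% of islands of highest fold in each list, the share of spermatocyte-only regions followed by another was 9.85%, against 8.56% of all regions. Most stood alone: 4760 had no such neighbour, 725 pairs and 126 triplets followed, and the longest run held 6. That run covered 482.8 kb at chr14:98838601-99321400 and included the region farthest from any round spermatid island. Runs of 5, singled out for their length, included chr3:51730601-51867600, chr6:49594801-49794600, chr8:110812201-110889600, chr8:122934201-123071400 and chr15:25464601-25546800.

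All 19 autosomes held spermatocyte-only regions. The counting intervals of the highest and lowest chromosome share did not overlap. These extremes were picked out after the shares were seen, and the intervals take neighbouring regions as independent, which they are not. The share was highest on chromosome 10, with 486 of 1667 regions with 4 spermatocyte marks or 29.2% (27.0 to 31.4), and lowest on chromosome 7, with 309 of 1577 or 19.6% (17.7 to 21.6). Chromosomes 11, 17 and 5 were also low, at 20.1, 21.0 and 21.3%, and chromosomes 3 and 13 high, at 28.6 and 28.2%. Across chromosomes the median H4K5ac fold of these regions ran from 5.20 to 6.05. The median log2 ratio of H4K5bu to H4K5ac ran from -0.56 to -0.51, and that of H4K8bu to H4K8ac from 0.16 to 0.23. Differences between chromosomes were not tested.

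**Figure D5:**
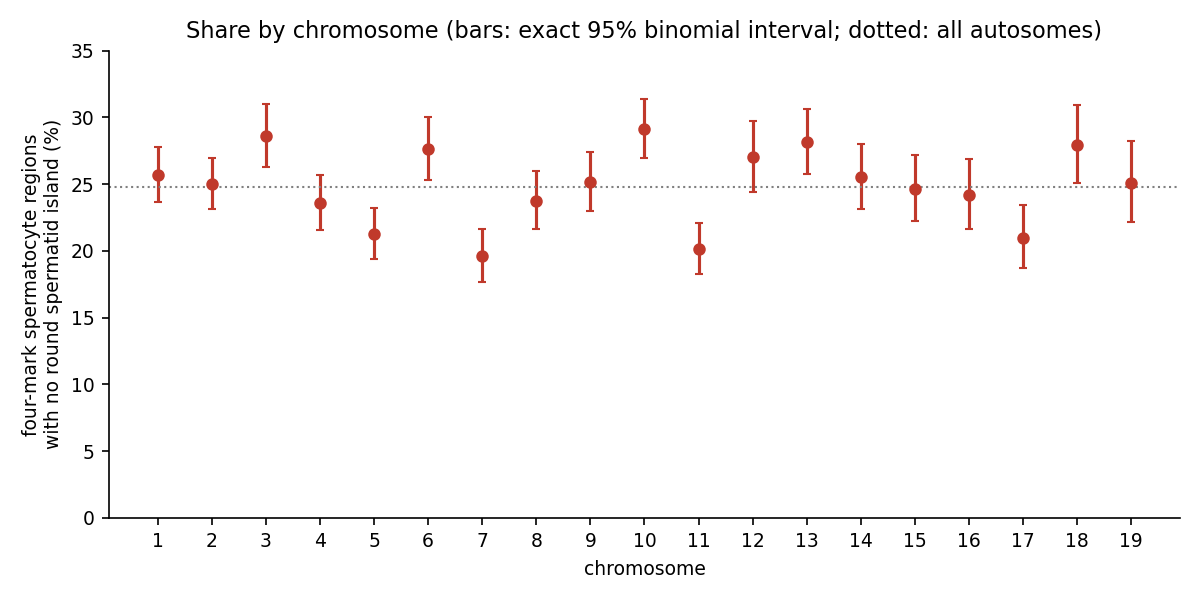
Percent of regions with 4 spermatocyte marks that had no round spermatid island, by chromosome, with exact 95% binomial intervals that cover counting error only. The dotted line is the share over all autosomes, 24.8%. Chromosome 10 is highest at 29.2% and chromosome 7 lowest at 19.6%.

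Over windows of 5 Mb the share had a median of 26.4% (interquartile range 18.5 to 34.2%) in the 457 windows with at least 20 regions of 4 spermatocyte marks, and its extremes were 0 and 55.6%. The windows with the most spermatocyte-only regions were on chromosome 8 from 110 to 115 Mb, with 43 of 122 regions or 35.2% (26.8 to 44.4), on chromosome 10 from 90 to 95 Mb, with 38 of 99 or 38.4% (28.8 to 48.7), and on chromosome 15 from 90 to 95 Mb, with 36 of 93 or 38.7% (28.8 to 49.4). These windows also held 64, 43 and 38 regions with 4 marks in both stages, so both classes lay side by side there. No region with 4 round spermatid marks and no spermatocyte mark lay in the window on chromosome 8, and the windows on chromosomes 10 and 15 held 1 and 6. The first window of chromosome 14, picked out after its values were seen, had 31 regions with 4 spermatocyte marks, none of them spermatocyte-only (0%, 0 to 11.2). With so few regions the interval is wide.

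The opposite class, regions with all 4 marks in round spermatids and none in spermatocytes, numbered 2773. Its round spermatid folds had medians of 3.69 in H4K5ac, 2.95 in H4K5bu, 2.45 in H4K8ac and 2.94 in H4K8bu, and its median length was 3400 bp. The log2 ratio of H4K5bu to H4K5ac had a median of -0.53 in the spermatocyte-only regions and of -0.33 in the opposite class, and that of H4K8bu to H4K5bu one of 0.17 and 0.010. The other pairs went the other way, with the opposite class farther from 0: the ratio of H4K8bu to H4K8ac had a median of 0.20 in the spermatocyte-only regions and of 0.29 in the opposite class, and that of H4K8ac to H4K5ac one of -0.55 and -0.61. The values come from libraries of different stages and inputs, and their difference was not tested. A spermatocyte-only region was followed by a region of the opposite class in 4.21% of cases (3.74 to 4.72), against 4.76% of all regions.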

How the data were processed

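Mononucleosomes of mouse spermatocytes and round spermatids were immunoprecipitated and sequenced, per the labels' protocols. The submitters' processing notes, per the labels, name SICER, deepTools 1.5.11, Bowtie2 2.2.5 and CASAVA 1.8.2, with build mm9. Their settings and the treatment of duplicate reads are not given there. Each of the 8 deposited lists holds, per island, a count of ChIP and of input reads, a fold, and a p-value with its q-value. The deposited fold equals ChIP over input reads multiplied by a factor that is the same throughout a list, the ratio of library sizes. The deposited q-values are all below 0.01.

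Lists on chromosomes 1 to 19 held 4665744 to 9101516 ChIP reads. Islands were merged and summed per region with pandas 2.3.3, numpy 2.4.6 and scipy 1.17.1, figures drawn with matplotlib 3.10.9, and the functions tested on simulated lists. Positions count from 1 in mm9. The gene table given has another build, so regions were not assigned to genes and no sequence is shown. Reads carry no molecular identifiers, and neighbouring regions are not independent. The regions, their rule and the comparisons were chosen with earlier results of these data known. Regions named were the 5 with the highest mean fold and the 5 with the most reads, the 3 longest, the 2 with the most extreme balance per residue and direction (highest fold and balance with at least 50 reads per list), the 2 farthest from round spermatid islands, the 3 typical ones, the 2 on each side of the rule and the 3 fullest windows.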

Additional observations from a re-analysis of the deposited data

How the results depend on the processing

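No paired analysis was possible because each mark and stage had 1 library and no replicate. Differences below are median log2 values of spermatocyte-only regions minus regions with 4 marks in both stages. Of 91 recomputed values, 50 stayed within the 95% interval of the value reported (exact binomial for shares, from the ranks of the spermatocyte-only regions for medians), or for the number of regions within 1.5 times, and 41 moved beyond it; no difference changed sign. With islands of q-value below 1e-05 alone, the length difference moved to -1.69. With the 50% of islands of highest fold per list there were 2946 regions, 23.1% of those with 4 spermatocyte marks. Their fold differences were -0.30 in H4K5ac, -0.22 in H4K5bu, -0.20 in H4K8ac and -0.21 in H4K8bu, and their balance differences 0.094 at lysine 5 and -0.039 at lysine 8. The next region was also spermatocyte-only in 9.85% (8.56% of all regions were), a round spermatid island lay within 10 kb of 20.6%, and H4K5ac had the highest fold in 85.1%. With lists of equal length the fold differences were -0.34 for H4K5bu and -0.35 for H4K8bu, the balance differences 0.11 and -0.039, the neighbour share 13.6% (10.1% of all), the share within 10 kb 25.2% and H4K5ac was highest in 82.7%. With islands up to 1000 bp apart merged, the H4K5bu difference was -0.31, the length difference -1.76 and the share within 10 kb 27.8%. With at least 25% of a region covered by a list, 25.9% of regions with 4 spermatocyte marks were spermatocyte-only, with fold differences of -0.51, -0.35, -0.35 and -0.40. With round spermatid islands counted up to 5000 bp away, the values were 20.99%, -0.43, -0.29, -0.30 and -0.33, the share within 10 kb 17.3% and the highest chromosome share 25.7%; fewer regions within 10 kb follow from this setting itself. Without the H4K8ac lists the percent was 27.4, the H4K5bu difference -0.30, the length difference -1.55, the neighbour share 19.1% (14.3% of all) and H4K5ac highest in 77.9%. With equal island edges, a setting chosen after seeing the data, the balance differences were 0.22 and -0.17. The shares of the leading mark and of chromosomes were also added to the recomputed results after the data were seen. The causes of the other moves were not tested. Without the H4K8ac lists no H4K8ac fold or lysine 8 balance could be had. Few reads per region limit single folds, and without replicates the spread between libraries is unknown.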
